A study of Mus musculus with 4 samples.

Results

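The choroid plexus epithelium genes are 10 genes that mark the secretory epithelium of the brain ventricles. They were chosen by name, as features (spots of the array) annotated with 1 of 10 gene symbols or a synonym of it. Of the 10 genes, 9 had a feature, and these 9 had 14 of the 38880 features on the array. No feature carried the name Prlr, the prolactin receptor, or a synonym, so it was not analysed here. Aqp1 and Cldn2 had 2 features each, Trpm3 had 4, and the other 6 genes had 1 each.

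The study compared cerebella dissected on postnatal day 0 from 2 kinds of C57Bl/6 mice, wild-type animals and conditional knockouts of Smarca5 (Smarca5 cKO). Smarca5 encodes Snf2h, the ATPase of ISWI chromatin remodellers. Each of 4 two-colour arrays, numbered by replicate, carried RNA of both genotypes, with cKO in Cy5 on arrays 1 and 3 and in Cy3 on arrays 2 and 4. There were 3 RNA samples per genotype: arrays 1 and 4 shared a wild-type sample, and arrays 3 and 4 shared a cKO sample. The labels do not name the Cre line and do not say whether a sample was 1 animal or a pool. All values are log2 ratios, read as cKO over wild type and centred on each array's median. That direction and the log base are likely but not stated with the values.

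The choroid plexus of the fourth ventricle hangs from the roof of the hindbrain beside the cerebellum, so a dissected cerebellum may carry some of it. Its epithelium comes from the embryonic roof plate, makes cerebrospinal fluid and supplies proteins to it. Transthyretin is among its most abundant transcripts, and for that reason such genes are used to see how much of this tissue a brain dissection holds. A ratio gives no level of expression, so the presence of choroid plexus in these samples could not be checked against its markers. In RNA of whole tissue, fewer cells of a type and less RNA per cell cannot be told apart.

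The Smarca5 feature lay below 0 on all arrays, at -0.36, -1.16, -1.43 and -0.75 on arrays 1 to 4, and its sign was one of the reasons for the direction used here. A feature under a clone name that is now a synonym of Smarca5 read 0.01, 0.34, 0.10 and 0.47. A set of 52 features, 5 of them with a gene symbol, had ratios beyond 4 in size on every array. The sign of all 52 followed the dye, with medians of -7.0, 7.05, -6.38 and 6.52 on arrays 1 to 4. Values given as Cy5 over Cy3 throughout would keep 1 sign in such features, which was the other reason for using the columns as deposited. Correlations between arrays over features lay between -0.21 and 0.16.

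No difference of a choroid plexus gene between cKO and wild type passed the test used, which also called no other gene, Smarca5 included. Limma with Benjamini-Hochberg adjustment called 0 of the 9 genes, where 0% of all 19909 genes were called, and the smallest adjusted p over all genes was 1. Over features it called 0 of 14, where 0% of all 38880 were called, and 0 of 14 had an unadjusted p under 0.05, beside 1.34% of all features (522). An unadjusted limma p under 0.05 was reached by 0 of the 9 genes, beside 1.56% of all genes (310). None of the 9 genes lay on 1 side of 0 on all 4 arrays, beside 11.6% of all genes, and neither did any of the 14 features, beside 10.9% of all features. The median fitted ratio of the 9 genes was 0.087, with 6 above and 3 below 0, and that of all genes was -0.0044. In every one of the 9 genes the standard error (SE) exceeded the size of the fitted ratio. Fitted ratios are means of arrays 1 to 3, because the sharing of RNA samples gives array 4 a weight of 0 in the estimate. Array 4 still counts in the spread. As a gene Smarca5 was the average of its feature and the clone-named one, with a fitted ratio of -0.42 ± 0.23 (SE, limma p 0.118). The feature annotated Smarca5 had -0.98 ± 0.29 (SE, limma p 0.0165, adjusted p 0.9999) and the clone-named one 0.15 ± 0.27 (SE).

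**Figure D1:**
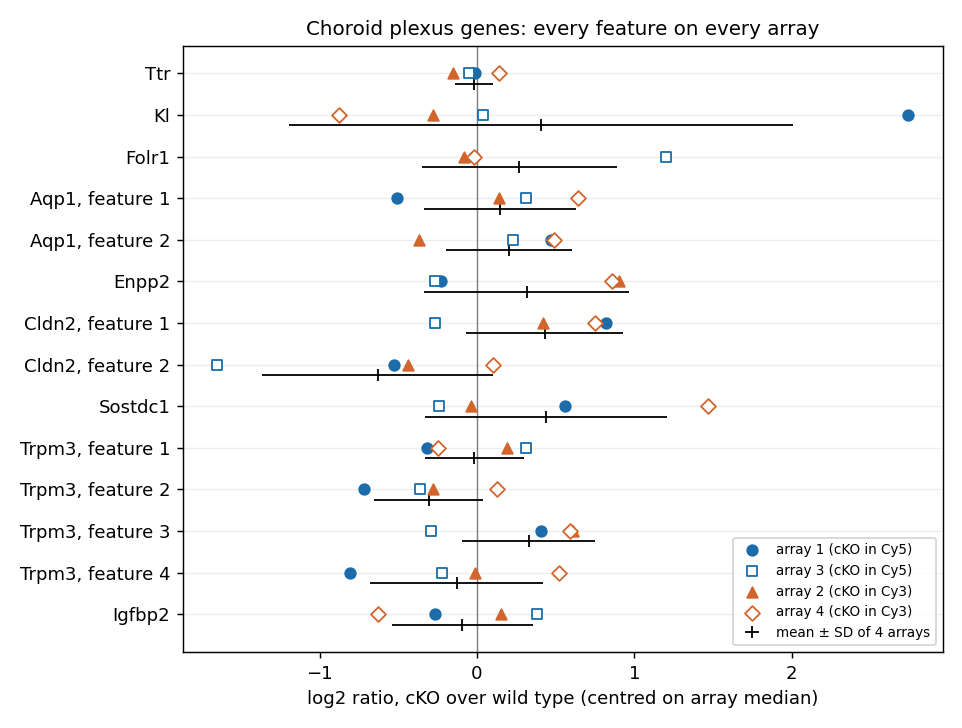
Log2 ratio of cKO over wild type (horizontal axis) for each of the 14 features of the choroid plexus genes, with 1 symbol per array (blue, cKO in Cy5; orange, cKO in Cy3) and the mean ± SD of the 4 arrays as a black bar. Ttr is tightly grouped at 0, Kl on array 1 reads 2.74, and each feature has arrays on both sides of 0.

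Among the genes for secreted carriers and binding proteins, Ttr was the steadiest. It encodes transthyretin, which carries thyroid hormone and the retinol-binding protein in cerebrospinal fluid and blood. Its ratios were -0.01, -0.15, -0.05 and 0.14 on arrays 1 to 4, so that 3 arrays were slightly below 0 and 1 above. The mean was -0.018 ± 0.12 (SD, n = 4 arrays), and 5.11% of all genes had a smaller SD. The fitted ratio of Ttr was -0.07 ± 0.20 (SE, limma p 0.738, adjusted p 1). Its 95% interval of -0.56 to 0.42 runs from 1.48-fold lower to 1.34-fold higher in cKO, and larger changes lie outside it.

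Igfbp2 encodes a binding protein of insulin-like growth factors that the choroid plexus secretes, and which the meninges and glia express too. Its ratios were -0.27, 0.15, 0.38 and -0.63 on arrays 1 to 4, with the arrays split evenly about 0. The fitted ratio was 0.087 ± 0.32 (SE, limma p 0.795, adjusted p 1), and the mean over all 4 arrays was -0.092 ± 0.45 (SD, n = 4).

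Sostdc1 encodes a secreted antagonist of BMP and Wnt signals. Its feature read 0.56, -0.04, -0.24 and 1.47 on arrays 1 to 4. Array 4 was far above the others, at the 98.0 percentile of all features on that array. Because array 4 has no weight in the estimate, the fitted ratio of 0.093 ± 0.50 (SE, limma p 0.859, adjusted p 1) was well below the mean of 0.44 ± 0.77 (SD, n = 4 arrays). It was 0.33 without array 1 and 0.56 without array 3.

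Enpp2 encodes autotaxin, the secreted enzyme that makes lysophosphatidic acid, and is expressed in oligodendrocytes as well as in choroid plexus. It read -0.23, 0.90, -0.27 and 0.86 on arrays 1 to 4. The arrays fell into pairs by dye, with a mean of -0.25 where cKO was in Cy5 and of 0.88 where it was in Cy3. The fitted ratio was 0.13 ± 0.48 (SE, limma p 0.789, adjusted p 1), and 0.32 with a term for the dye. Arrays of the 2 dye orientations did not overlap in 3 of the 9 genes (Enpp2, Trpm3 and Kl), beside 33.9% of all genes. That share is close to the one over all genes, so the count says little about the choroid plexus genes. Enpp2 and Trpm3 were higher, and Kl lower, where cKO was in Cy3. The fitted ratio is a mean over 2 arrays with cKO in Cy5 and 1 with cKO in Cy3. With a term for the dye Kl moved from 0.83 to 0.48 and Trpm3 from -0.12 to -0.046.

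Kl encodes klotho, a membrane protein with a shed form that serves as co-receptor of the hormone FGF23 and is made in kidney and choroid plexus. Its ratios were 2.74, -0.28, 0.04 and -0.88 on arrays 1 to 4. The value on array 1 lay at the 99.7 percentile of all features on that array, while the other 3 arrays were near or below 0. The mean was 0.41 ± 1.60 (SD, n = 4 arrays), and 99.2% of all genes had a smaller SD. The fitted ratio of Kl was 0.83 ± 0.97 (SE, limma p 0.424, adjusted p 1), with a 95% interval from -1.56 to 3.22, and without array 1 it was -0.36.

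The cKO sample of array 1 was used on that array alone. On the same array 8 of 8 hindbrain Hox genes (Hoxa2 to Hoxa5 and Hoxb2 to Hoxb5), which mark segments behind the cerebellum, were above 0 with a median of 3.12. Their medians were -0.21, -0.57 and -0.34 on arrays 2 to 4. The part of that difference between arrays in the value of Kl was not tested. The other 8 choroid plexus genes did not share the high reading, since on array 1 they lay between -0.36 (Trpm3) and 0.56 (Sostdc1).

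Folr1 encodes folate receptor alpha, which moves folate across the choroid plexus epithelium into the cerebrospinal fluid. It read -0.02, -0.08, 1.20 and -0.02 on arrays 1 to 4. Array 3 stood alone, at the 98.0 percentile of all features there, and the others were close to 0. Array 4, which carried the same cKO sample as array 3, did not show the high value. The fitted ratio of Folr1 was 0.37 ± 0.37 (SE, limma p 0.363, adjusted p 1), and it was -0.046 without array 3.

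Among the genes of channels and junctions, Aqp1 encodes the water channel of the apical membrane, which takes part in the secretion of fluid. The first of its features read -0.51, 0.14, 0.31 and 0.64 on arrays 1 to 4, and the second 0.47, -0.37, 0.23 and 0.49. Both were above 0 on arrays 3 and 4, and they disagreed in sign on arrays 1 and 2. Their average gave a fitted ratio of 0.045 ± 0.25 (SE, limma p 0.863, adjusted p 1), with a 95% interval from -0.57 to 0.66, and 0.19 without array 1.

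Cldn2 encodes claudin 2, a tight junction protein that forms pores for cations and water. The first feature of Cldn2 read 0.82, 0.42, -0.27 and 0.75 on arrays 1 to 4, and the second -0.53, -0.44, -1.65 and 0.10. The second was lower than the first on each array, by 0.65 to 1.38. For 4467 genes with 2 features the median difference in size between the features on an array was 0.46, and its 95th percentile was 1.68. The fitted ratios of the Cldn2 features were 0.32 ± 0.33 and -0.87 ± 0.52 (SE), with limma p of 0.367 and 0.144 (adjusted p 0.9999 for each). Averaged, Cldn2 had -0.27 ± 0.40 (SE, limma p 0.513), and 0.16 without array 3.

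Trpm3 encodes a cation channel that opens with heat and steroids and is expressed in neurons and glia as well as in choroid plexus. Its 4 features had means of -0.018, -0.31, 0.33 and -0.13 over the arrays. On each array they covered both sides of 0, with a range from 0.67 on array 3 to 1.22 on array 1. Their average read -0.36, 0.13, -0.14 and 0.25 on arrays 1 to 4, and the fitted ratio was -0.12 ± 0.27 (SE, limma p 0.658, adjusted p 1). It is not known here which transcripts of these genes each feature reads.

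**Figure D2:**
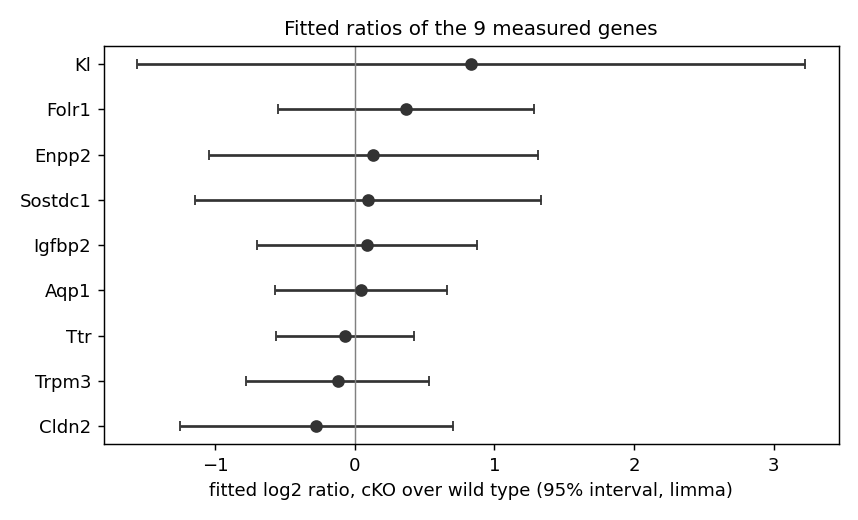
Fitted log2 ratio of cKO over wild type (horizontal axis) for the 9 measured choroid plexus genes, as points with the 95% interval from limma. All 9 intervals hold 0; the interval is narrowest for Ttr (-0.56 to 0.42) and widest for Kl (-1.56 to 3.22).

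All 9 intervals held 0, but they differed in width. In 4 genes (Ttr, Aqp1, Trpm3 and Igfbp2) the whole interval lay within 1 of 0 on the log2 scale, so that a change of 2-fold or more lay outside it. In the other 5 such a change was not excluded by the interval in at least 1 direction. An interval rests on the spread of ratios over arrays. Intensities were not used, so it is unknown whether the features of any of the 9 genes had signal over background. The interval of Trpm3 is that of the average of its 4 features. Taken singly, features 2, 3 and 4 of Trpm3 had intervals of -1.26 to 0.35, -0.56 to 1.05 and -1.44 to 0.74. Each of those goes beyond 1 in size on 1 side, while that of feature 1 was -0.58 to 0.70. The SD of the ratios was above the median SD of all genes (0.39) in 6 of the 9.

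The choroid plexus genes did not move together within an array. Of the 9 genes 3, 3, 4 and 6 were above 0 on arrays 1 to 4. On array 2 they ran from -0.28 (Kl) to 0.90 (Enpp2), on array 3 from -0.96 (Cldn2) to 1.20 (Folr1), and on array 4 from -0.88 (Kl) to 1.47 (Sostdc1). The SD over the 9 genes within an array was 0.96, 0.34, 0.58 and 0.72, beside 0.66, 0.56, 0.49 and 0.57 over all genes. The SD on array 1 includes the 2.74 of Kl, while the other genes there lay between -0.36 (Trpm3) and 0.56 (Sostdc1). On array 2 the SD was smaller than over all genes. Their medians were -0.02, -0.04, -0.05 and 0.25 on arrays 1 to 4, so the group was a little higher on array 4 alone. With features counted singly, 10 of 14 were above 0 on array 4, beside 5, 6 and 6 on arrays 1 to 3.

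Pairs of arrays that shared an RNA sample allowed samples of 1 genotype to be set against each other. The difference between arrays 4 and 1 compares the cKO samples, and that between arrays 3 and 4 the wild-type samples. Each such pair had opposite dyes, so these differences hold the dye and array error as well. A difference of single arrays also tends to exceed the fitted ratio, which is a mean of 3 arrays. The cKO samples differed by more than the fitted ratio in 8 of the 9 genes, beside 78.6% of all genes, and the wild-type samples in 9 of 9, beside 76.3% of all genes, so these counts say little about the choroid plexus genes. Folr1 differed by 0.0 between the cKO samples and by 1.22 between the wild-type samples. The median size of the difference between cKO samples was 0.58 for the 9 genes and 0.44 for all genes. Between wild-type samples it was 1.01 and 0.42.

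Single genes showed what lay behind these medians. The log2 difference of Kl was -3.62, the cKO sample of arrays 3 and 4 reading lower than that of array 1. Sostdc1 read lower for the wild-type sample of arrays 1 and 4 than for that of array 3 (-1.71), as did Cldn2 (-1.39) and Enpp2 (-1.13). Folr1 (1.22), Igfbp2 (1.01) and Kl (0.92) read higher there. Sample and dye cannot be told apart in these differences for any of the genes. Ttr differed little, by 0.15 between the cKO samples and by -0.19 between the wild-type samples.

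**Figure D3:**
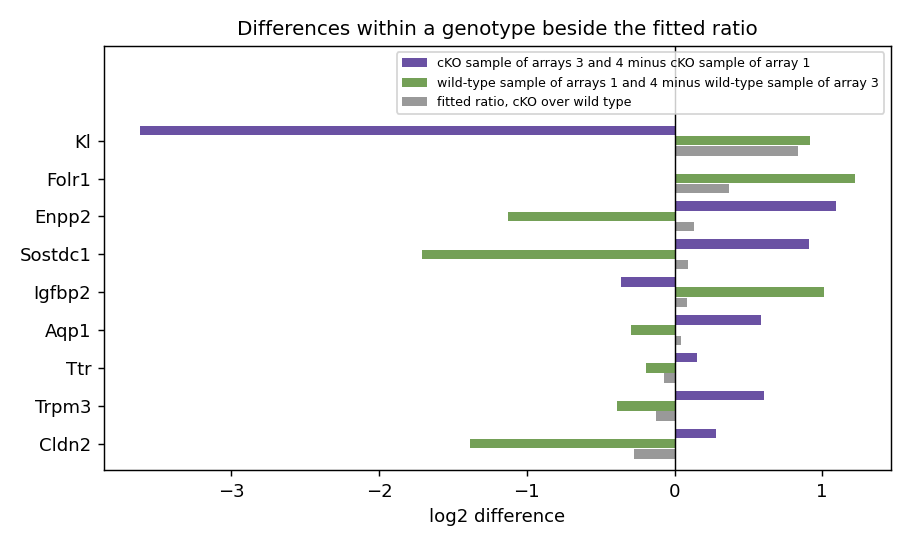
Log2 differences (horizontal axis) of the 9 choroid plexus genes between cKO samples (purple), between wild-type samples (green) and, in grey, the fitted ratio between genotypes, 1 set of bars per gene. The purple bar of Kl reaches -3.62, and Ttr has small bars throughout. The grey bar is a mean of 3 arrays and the others are differences of single arrays, so their lengths are not on equal terms. The purple and green bars also hold dye and array error.

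Other genes known from choroid plexus epithelium were likewise not called, and had a smaller median SD than the 9 genes. The median SD was 0.35 in the others and 0.60 in the 9, beside 0.39 in all genes. None of the 9 kept 1 sign on all arrays, beside 11.6% of all genes, and with 9 genes that count says little. The list held 35 further genes, of which 34 were measured, and limma called 0 of them. Their median fitted ratio was 0.035, with 20 above and 14 below 0, and 5 were above 0 on all 4 arrays (5.93% of all genes were) and 1 below (5.72% of all genes). Their medians were 0.09, 0.087, 0.02 and 0.12 on arrays 1 to 4, and array 4 was again the highest. An unadjusted limma p under 0.05 was reached by 1 of the 34, the serotonin receptor gene Htr2c, beside 1.56% of all genes (310).

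Htr2c encodes the serotonin receptor 2C, which is abundant in choroid plexus and is also made by neurons. It read 0.81, 0.71, 0.78 and 0.17 on arrays 1 to 4, with all arrays above 0, and its fitted ratio was 0.77 ± 0.28 (SE, limma p 0.0369, adjusted p 1). Slc4a5, the gene of a sodium bicarbonate cotransporter of the apical membrane, read 0.67, 0.52, 0.53 and 1.66, with a fitted ratio of 0.57 ± 0.41 (SE, limma p 0.21, adjusted p 1). Neither passed the test. Lbp, which encodes the lipopolysaccharide binding protein, had 0.32 ± 0.30 (SE) and Spint2, the gene of a protease inhibitor, 0.27 ± 0.25 (SE), both above 0 on all arrays. Slc4a10, the gene of the basolateral bicarbonate transporter, was the gene below 0 on all 4 arrays, with values from -0.33 to -0.14 and a fitted ratio of -0.23 ± 0.20 (SE, limma p 0.294). Otx2, the transcription factor that choroid plexus development needs, read -0.79, -0.005, 0.01 and 0.64, lowest on array 1 and highest on array 4.

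The pattern of Ttr over the 4 arrays was compared with those of the 146 other measured genes of all the lists used here, by Euclidean distance between the 4 ratios. The nearest were the copper transporter gene Slc31a1 (0.23), the cerebellar transcription factor gene Zic1 (0.25) and the alpha globin gene Hba-a1 (0.29). These genes all lay close to 0 on each array, and among all genes 398 were nearer to Ttr than Slc31a1, so this likeness marks a flat profile.

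Markers of tissues that border or enter the cerebellum were measured in the same way. Ependymal and multiciliated cell genes, which line the ventricle next to the choroid plexus, had a median fitted ratio of 0.062 over 19 genes, and roof plate genes had 0.097 over 11. The medians were 0.025 for 18 genes of meninges and fibroblasts, -0.092 for 14 endothelial genes, 0.012 for 10 erythroid genes and 0.028 for 10 oligodendrocyte lineage genes. Lmx1a and Msx1 stand in both the roof plate list and that of the other choroid plexus genes. Of all these lists limma called 0 genes, and an unadjusted p under 0.05 was reached by 2 of 19 ependymal genes and 1 of 11 roof plate genes, beside 1.56% of all genes, and by 0 genes of the other 4 lists. Roof plate genes had medians of 0.40, -0.15, -0.05 and -0.21 on arrays 1 to 4, and oligodendrocyte lineage genes 0.47, -0.15, -0.18 and -0.05, with 9 of 10 above 0 on array 1. Both were highest on array 1, the array of the high Hox and Kl readings. Ependymal genes had medians of 0.24, 0.05, 0.04 and 0.26 on arrays 1 to 4, and erythroid genes -0.245, 0.23, -0.075 and 0.30. Both were highest on array 4, as were the choroid plexus genes. The medians of meninges and fibroblasts (0.155) and of endothelium (0.01) were highest on array 2. The 16 measured genes of the cerebellar granule and Purkinje lineages had medians of -0.42, -0.025, -0.045 and -0.27, lower on arrays 1 and 4 than on the other two, with 3 of 16 at an unadjusted p under 0.05 (1.56% of all genes) and 0 called. The part of these lists in the ratios of the choroid plexus genes was not tested.

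**Figure D4:**
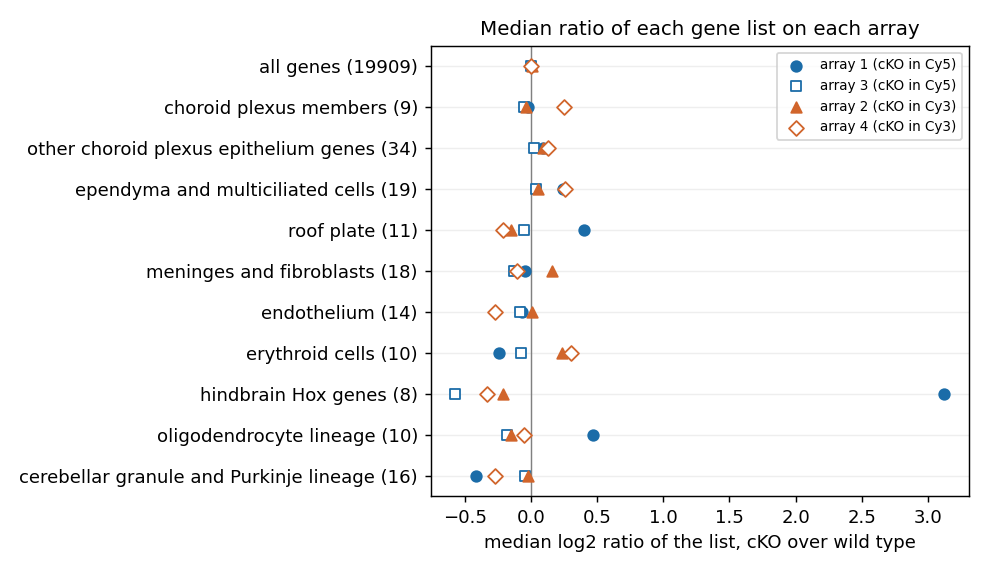
Median log2 ratio of cKO over wild type (horizontal axis) of each gene list on each array, with the number of measured genes in brackets and 1 symbol per array. The 9 choroid plexus genes have medians from -0.05 to 0.25, while the hindbrain Hox genes reach 3.12 on array 1.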

How the data were processed

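RNA was isolated with Trizol and labelled with a Genisphere dendrimer kit, per the labels' protocols. The deposited values are log ratios, 1 for each feature on an array, taken here to be log2. The largest had a size of 10.27, too large for base 10, and a natural log cannot be told apart from base 2, in which case folds here would be too small. Scanner intensities were not used here, and how the authors normalized the arrays is not stated in the labels. Each column was centred on its median. The platform annotation named 30457 of 38880 features, and 21476 symbols were brought to 19909 current names through RefSeq (GRCm38.p6, names only). Features of a name were averaged.

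Genes and features were fitted with limma 3.58.1 (lmFit, eBayes, two-sided, an intercept alone) in R 4.3.3, with data.table (version 1.17.8). The correlation was set to 0.5 for arrays with a sample in common. The fit was tested on simulated data. Genes were called at an adjusted p under 0.05. The number of arrays limits the precision. Each p-value rests on the spread of the ratios over the 4 arrays, which eBayes draws towards that of all genes or features. The arrays hold 3 RNA samples a genotype, and their spread may be technical. The genes, lists and tests were chosen with earlier results of these data known, and lists were described by counts and medians. Every choroid plexus gene is named, and of the further list the genes with 1 sign on all arrays (at most 4 a side, by fitted ratio). Otx2 was named after its values were seen. For likeness to Ttr the 3 nearest genes are named. Alternatives were independent arrays, turned dye-flip columns, a dye term, no centring, equal spread, unmerged symbols, medians of features, a threshold of 0.1 and leaving out each array.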

Additional observations from a re-analysis of the deposited data

Results flagged for a closer look

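In 28 sets of 4 values (14 features, 3 averaged genes and 11 list medians) 1 array was compared with the other 3, and 4 stood apart by the size of the gap to the nearest array. Chance flags about 1 in 20 such sets, or 1.4 of 28 if they were independent, which they are not. The sets overlap, 2 of the 4 are the same Hox signal, and the lists were chosen with earlier results known, so the count is a description. Folr1 read 1.20 on array 3, against -0.08 to -0.02 on the others. The median of the 9 choroid plexus genes was 0.25 on array 4, where arrays 1 to 3 had -0.05 to -0.02. The median of the 8 hindbrain Hox genes was 3.12 on array 1, and that of Hoxb2 to Hoxb5, which are among them, was 3.12 as well. Kl on array 1 did not stand apart by this measure, because its other 3 arrays were spread out.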

How the results depend on the processing

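The count of called choroid plexus genes was 0 in each setting run, as was that of all genes, including at an adjusted p under 0.1. At an unadjusted p under 0.05 there were 310 genes, and 139 to 995 in the other settings, while 0 of the 9 choroid plexus genes had one in any. The count of called features was 0 except with dye-flip columns turned, where it was 48, and 47 of these were among the 52 features that followed the dye. Of 99 recomputed ratios of choroid plexus genes 87 kept their sign and 12 changed it, with no call on either side. With dye-flip columns turned Ttr had 0.03, Enpp2 -0.47 and Igfbp2 -0.013, and with independent arrays Igfbp2 had -0.092. Leaving out 1 array gave ranges of -0.36 to 1.39 for Kl, -0.046 to 0.59 for Folr1, -0.25 to 0.57 for Enpp2, 0.093 to 0.56 for Sostdc1, 0.045 to 0.19 for Aqp1, -0.41 to 0.16 for Cldn2, -0.25 to 0.085 for Trpm3 and -0.19 to 0.087 for Igfbp2. For Igfbp2 without replicate 1 the ratio was -0.0071, and for Trpm3 without replicate 3 it was 0.022. The median of the choroid plexus genes was 0.087, from 0.03 to 0.17 in the other settings. That of the other epithelium genes was 0.035, and it was 0.10 with independent arrays, 0.091 with a dye term and 0.035 to 0.12 when an array was left out. Independent arrays, the dye term and leaving out array 1 or 3 give array 4 a weight in the estimate. Without intensities, signal over background is unknown, and dim features could not be told from others.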
